A study of Mus musculus with 8 samples.

Results

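The 37 genes described here are type I interferon-stimulated genes, taken from a given list of symbols that used no measured value. They are 37 of the 35458 genes to which the transcripts counted by Salmon, a tool that estimates counts per transcript, belonged, and 35 of them were among the 15207 genes with enough reads to be tested. Total RNA was sequenced from 8 tumors that grew from 1000000 Neuro-2a (N2A) cells, an established mouse neuroblastoma line, injected under the skin of female A/J mice bought at 4 weeks of age. Once a tumor could be felt, mice received SR59230A, which blocks the β3-adrenergic receptor, into the peritoneum at 10 mg/kg 2 times a day (4 tumors, numbered 1 to 4) or physiological solution as vehicle (4 tumors, numbered 0 to 3, whose treatment is also labelled mock). All tumors came from the same cell line, and no tumor of an undosed mouse was analysed here. The labels give each tumor a number but do not say whether each came from its own mouse, and the study describes its sequencing as duplicated, so p-values measure the spread between these 8 samples. The question the data can address is whether the transcript level of these genes differed between tumors of mice that received the antagonist and tumors of mice that received vehicle.

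Type I interferons are cytokines that most cells release when they sense viral or displaced self nucleic acids. They bind the receptor IFNAR1-IFNAR2, whose kinases JAK1 and TYK2 phosphorylate STAT proteins; among these, STAT2 joins IRF9 in ISGF3, the complex that binds the interferon-stimulated response element (ISRE) in promoters. The genes switched on in this way encode RNA sensors, enzymes that degrade or edit RNA, proteins that block translation or viral release, and feedback factors, and in tumors they are read as a sign of interferon exposure of cancer cells and of the immune and stromal cells around them.

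Estimated counts summed to 23484190 to 43675495 reads in the SR59230A tumors and to 28614914 to 44045575 in the vehicle tumors. All 10 neuroblast markers passed the low-count filter, with summed levels of 589 to 793 CPM (read counts scaled to a common library size) in the SR59230A tumors and 747 to 1042 CPM in the vehicle tumors. Several libraries stood apart. Reads of 6 skeletal muscle markers summed to 2103 CPM in SR59230A tumor 1 and 179 CPM in SR59230A tumor 2, against at most 23.2 CPM in the others. A single transcript took 11.3% of all TPM in SR59230A tumor 4 and 14.96% and 13.8% in vehicle tumors 0 and 3, against at most 5.08% elsewhere. Mitochondrial genes held 7.47% of reads in SR59230A tumor 3 and 6.11% in vehicle tumor 3, against 1.30% to 3.61% in the other 6. Because whole tumors were sequenced, fewer cells of a type and less RNA per cell cannot be told apart.

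Of the 37 genes, 27 had a promoter in the RefSeq table for GRCm38.p6, which covers 250 bases before the transcription start. The ISRE letters, here GAAA and GAAA with any 2 bases between them, searched on both strands, occurred in the promoters of 9 of these 27 genes (33.3%), against 936 of 27025 genes (3.46%) in the whole table. The letters TTC and GAA with any 3 bases between them, known as the gamma-activated site, occurred in 4 of the 27 (14.8%) against 8.13% of all genes, and 2 genes, Bst2 and Oas1a, held both motifs. A match of these letters describes the sequence and does not show that a factor was bound. The following windows are printed because they carry the ISRE letters. They run from 5′ to 3′ on the strand of the gene, with 20 bases on each side where the promoter allowed it. The ISRE letters (or their reverse complement, TTTC and TTTC) are in capitals.
Isg15 (chr4:156200855-156200916, minus strand): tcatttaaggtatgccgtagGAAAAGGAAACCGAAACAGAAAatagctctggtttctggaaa
Ifit1 (chr19:34640765-34640833, plus strand): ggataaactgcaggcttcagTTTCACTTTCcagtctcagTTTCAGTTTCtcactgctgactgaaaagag
Ifit3 and Ifit3b (chr19:34583353-34583436, plus strand): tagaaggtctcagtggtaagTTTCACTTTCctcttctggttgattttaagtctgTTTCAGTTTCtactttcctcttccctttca
Rsad2 (chr12:26456543-26456592, minus strand): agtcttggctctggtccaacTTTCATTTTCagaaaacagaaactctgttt
Oas1a (chr5:120907526-120907565, minus strand): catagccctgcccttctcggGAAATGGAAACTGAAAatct
Oas3 (chr5:120777705-120777754, minus strand): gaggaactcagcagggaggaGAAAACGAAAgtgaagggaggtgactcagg
Bst2 (chr8:71537567-71537622, minus strand): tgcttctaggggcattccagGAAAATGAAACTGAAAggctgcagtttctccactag
Stat2 (chr10:128270256-128270305, plus strand): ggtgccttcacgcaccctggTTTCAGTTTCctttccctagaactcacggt

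In Isg15 the capitals are 3 matches in a row that overlap, 57 to 78 bases before the start, and in Bst2 and Oas1a they are 2 overlapping matches each. Ifit1 held 2 separate matches, both in the reverse orientation. The Ifit3 coordinates are given, and the Ifit3b window at chr19:34607749-34607832 had the identical sequence. The promoter of Stat2, which encodes a subunit of ISGF3, held 1 match, 213 to 222 bases before the start.

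Levels of the 37 genes spanned a wide range when expressed as CPM per kilobase of effective transcript length, the scale on which different genes can be compared. Ifi27 had the highest level, with a mean of 66.4 CPM per kilobase over the 8 tumors (70.4 with SR59230A and 62.5 with vehicle). Lgals3bp followed with 50.8, Bst2 with 26.1, Ifi35 with 24.8, Trim25 with 18.8 and Isg15 with 14.4 CPM per kilobase. At the low end were Oas2 with 0.245, Ifit3 with 0.124 and Ifit3b with 0.0637 CPM per kilobase. The genes that encode the ISGF3 subunits STAT2 and IRF9 stood at 11.6 and 3.68 CPM per kilobase.

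**Figure D1:**
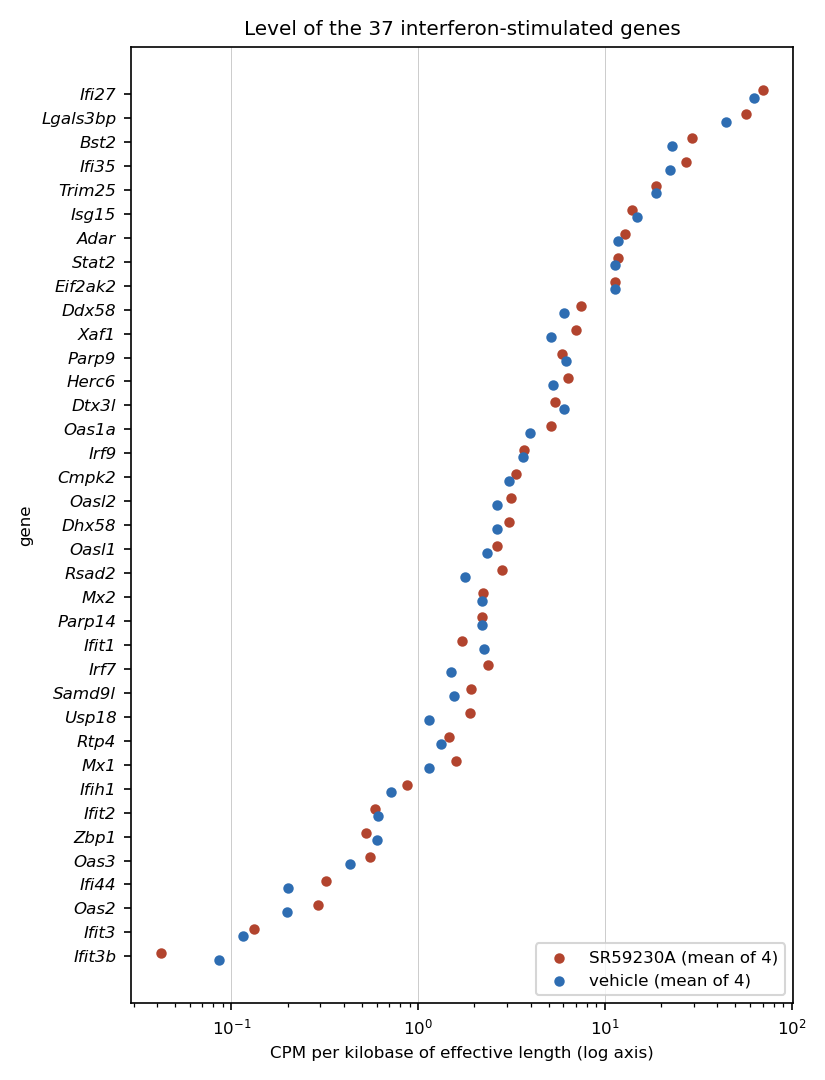
Mean level of each of the 37 genes in the SR59230A tumors (red, above) and the vehicle tumors (blue, below), in CPM per kilobase of effective length on a log axis, each point a mean of 4 tumors. Ifi27 is at the top with 70.4 in SR59230A tumors and 62.5 in vehicle tumors, and the points of the 2 groups lie close together for most genes.

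None of the 35 tested genes passed the threshold (edgeR adjusted p under 0.05 and a log2 fold change beyond 0.5 in either direction), and their adjusted p ran from 0.996 to 0.998. In the same test 0% of all genes passed (0 of 15207), and DESeq2 called 37 of 16791 genes (0.22%), none of them among the 35, whose smallest DESeq2 adjusted p was 0.91. Log2 fold changes of SR59230A over vehicle were positive for 25 genes and negative for 10, against 7546 positive and 7661 negative among all 15207 genes tested. Their median was 0.13, against -0.00 over all genes tested. The fold changes of the 35 genes ran from -0.43 for Ifit1 to 0.71 for Usp18. Positive fold changes over all genes were counted only in the main fit of all 8 tumors. At an unadjusted edgeR p under 0.05 there was 1 gene with a positive fold change (Bst2) and none with a negative one, among 35, where the background over all genes was 2.22% in the positive and 2.42% in the negative direction. The count of 1 was 5 without vehicle tumor 3, 2 without vehicle tumor 1 or SR59230A tumor 4 and 0 without vehicle tumor 0 or vehicle tumor 2. In none of the 8 fits without a single tumor did a gene with a negative fold change reach this p. Over all genes tested, 706 of 15207 had an unadjusted p under 0.05 in either direction with all 8 tumors. This total was 1327 of 15425 without vehicle tumor 3, 450 of 15459 without vehicle tumor 1 and 796 of 15426 without SR59230A tumor 4. It was 348 of 15489 without vehicle tumor 0 and 714 of 15584 without vehicle tumor 2. The 4 SR59230A values and the 4 vehicle values overlapped for every one of the 35 genes, while 1.32% of all genes had SR59230A values that all lay above the vehicle values and 1.29% had values that all lay below. The median was 0.05 within tumors 1 and 2 of each group, a subset chosen after the values were seen, and 0.20 in the other 4 tumors, with 21 and 23 of 35 genes positive. Leaving out a single tumor turned the sign of 16 of the 35 fold changes and moved 17 others by over 1.5 times, and the 2 that stayed within this range were Bst2 and Xaf1. Without SR59230A tumor 3 the median was 0.00, with 18 of 35 positive, and without vehicle tumor 3 it was 0.24, with 30 positive. It was 0.30 without the 3 tumors in which a single transcript took 11.3% or more of TPM, 0.29 without the 2 tumors with muscle reads and 0.08 without the 2 tumors with the highest mitochondrial shares, and no gene of the set passed the threshold in any of these fits. The 7 tested genes with a printed ISRE window lay on both sides of 0, with log2 fold changes of -0.43 for Ifit1, -0.17 for Isg15, 0.08 for Stat2, 0.36 for Oas1a, 0.38 for Bst2, 0.42 for Oas3 and 0.65 for Rsad2.

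**Figure D2:**
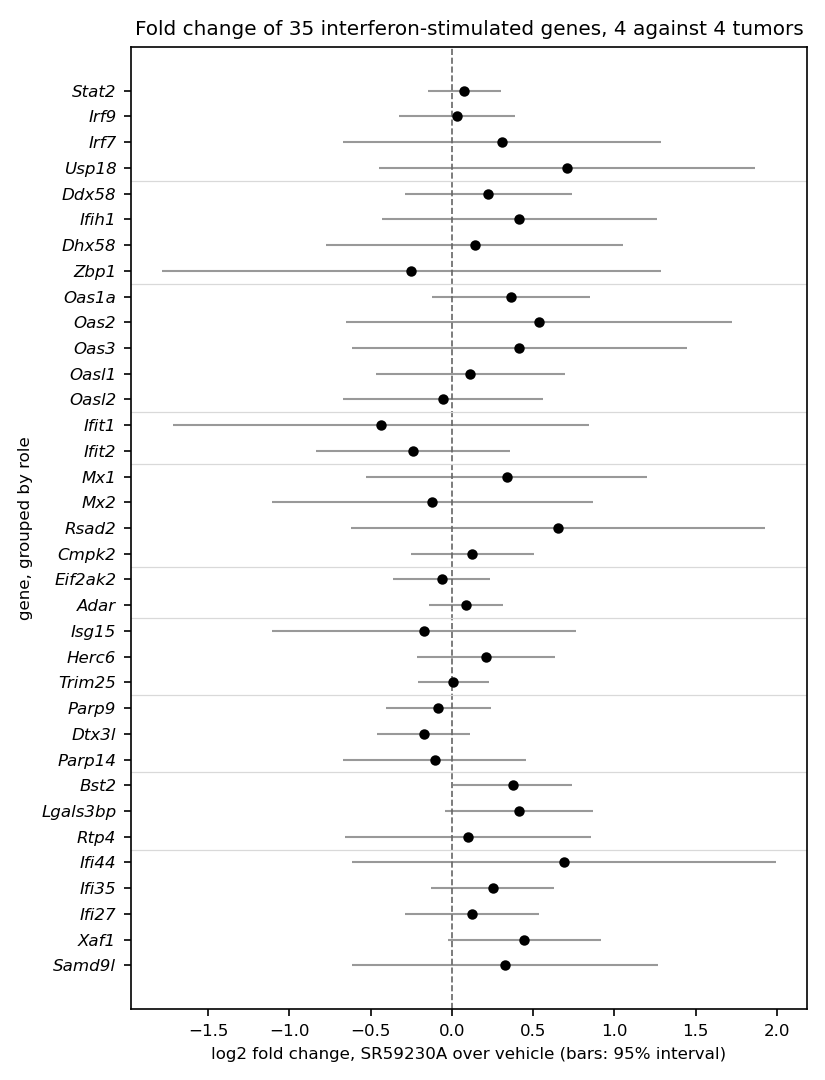
Log2 fold change of the 35 tested genes, SR59230A over vehicle (horizontal axis), with 95% intervals from the edgeR fit of 4 against 4 tumors, genes grouped by role from top to bottom. The interval of Bst2 lies just above 0 (0.01 to 0.74) and all others include 0, and the narrowest intervals belong to Adar, Stat2 and Trim25.

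Values per tumor are given from here on as CPM, in the order of SR59230A tumors 1, 2, 3 and 4 and vehicle tumors 0, 1, 2 and 3. Fold changes are log2 values from edgeR ± an SE derived from its test. The 4 genes of signaling and feedback all had positive fold changes that did not pass the test (median 0.19), but the sign turned for Irf7, at -0.27 without SR59230A tumor 3, and for Irf9, at -0.17 without tumors 1 and 2 of each group and -0.0010 with transcript length offsets. Stat2 had 32.1, 37.6, 36.9 and 36.6 CPM in the SR59230A tumors, against 32.1, 34.5, 31.7 and 37.5 CPM in the vehicle tumors. The values lay within a narrow band, overlapped between groups and gave a fold change of 0.08 ± 0.10 (95% interval -0.15 to 0.30). Irf9, the DNA-binding subunit of ISGF3, had 10.4, 8.87, 9.20 and 7.25 CPM in the SR59230A tumors, against 8.47, 8.18, 8.42 and 9.96 CPM in the vehicle tumors. Its highest and its lowest value were both in SR59230A tumors, 1 and 4, and the fold change was 0.03 ± 0.16. Irf7, the transcription factor that amplifies interferon alpha production, ranged over 1.75 to 7.01 CPM with SR59230A and 2.08 to 4.10 CPM with vehicle, with SR59230A tumor 3 highest and a fold change of 0.31 ± 0.44. Usp18, the protease that removes ISG15 from proteins and blocks IFNAR2, ranged over 1.13 to 5.99 CPM with SR59230A and 1.18 to 2.72 CPM with vehicle. Its fold change of 0.71 ± 0.52 was the largest of the set, and without SR59230A tumor 3, whose value was 5.99 CPM, it was 0.09.

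Among the nucleic acid sensors, Ddx58 encodes RIG-I, which detects RNA with a triphosphate end. Ddx58 had 14.5, 15.8, 20.2 and 14.5 CPM in the SR59230A tumors, against 11.3, 12.9, 10.5 and 20.9 CPM in the vehicle tumors. SR59230A tumor 3 and vehicle tumor 3 were highest, the other 3 vehicle tumors lay below every SR59230A tumor, and the fold change was 0.22 ± 0.23, which was 0.49 without vehicle tumor 3 and 0.09 without SR59230A tumor 3. Dhx58, which encodes the regulatory helicase LGP2, had 3.52, 4.46, 11.4 and 5.49 CPM in the SR59230A tumors, against 4.97, 4.94, 3.56 and 8.999 CPM in the vehicle tumors. The same 2 tumors numbered 3 were highest, SR59230A tumor 1 and vehicle tumor 2 were lowest, and the fold change was 0.14 ± 0.41. Ifih1, which encodes MDA5, a sensor of long double-stranded RNA, ranged over 2.91 to 4.53 CPM with SR59230A and 1.63 to 4.90 CPM with vehicle with a fold change of 0.41 ± 0.38. Without vehicle tumor 3 the fold change of Ifih1 was 0.91. Zbp1, a sensor of Z-form nucleic acids that can start necroptosis, had only 5 to 29 reads per tumor and a fold change of -0.25 ± 0.68.

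The 2-5A synthetases make the short oligoadenylates that activate RNase L, which cuts RNA. Oas1a had 9.60, 10.04, 11.97 and 6.73 CPM in the SR59230A tumors, against 5.52, 8.12, 7.37 and 8.77 CPM in the vehicle tumors. SR59230A tumors 1 to 3 lay above all vehicle tumors and SR59230A tumor 4 was the second lowest of the 8, with a fold change of 0.36 ± 0.22 (95% interval -0.12 to 0.85). Of the 31-base words in Oas1a transcripts, 68.8% also occurred in transcripts of another gene, nearly all in Oas1g, so reads could be shared between them. The sum of both copies gave a log2 ratio of group means of 0.33, which was not tested.

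Oasl1 encodes a protein without synthetase activity that in mice limits translation of Irf7. Oasl1 had 3.14, 5.92, 7.30 and 5.29 CPM in the SR59230A tumors, against 5.19, 4.75, 4.35 and 5.71 CPM in the vehicle tumors. SR59230A tumor 1 was lowest and SR59230A tumor 3 highest, so that the vehicle values lay inside the SR59230A range, and the fold change was 0.11 ± 0.26. Oasl2, an active synthetase in mice, had 5.13, 5.46, 9.10 and 3.81 CPM in the SR59230A tumors, against 5.45, 6.25, 5.16 and 7.51 CPM in the vehicle tumors. SR59230A tumor 4 was lowest and SR59230A tumor 3 highest, with a fold change of -0.06 ± 0.27. With transcript length offsets the fold change of Oasl2 was 0.21, and its CPM per kilobase averaged 3.13 with SR59230A and 2.66 with vehicle. Transcripts annotated as protein coding held 57.2% of its reads and those with a retained intron 10.8%. Oas2 and Oas3 had fewer reads, 9 to 63 and 33 to 93 per tumor, and fold changes of 0.54 ± 0.53 and 0.42 ± 0.46. For Oas2 the fold change was 1.65 within tumors 1 and 2 of each group and -0.31 in the other 4, and without vehicle tumor 3 it was 1.15 for Oas2 and 0.99 for Oas3.

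The IFIT genes lie together on chromosome 19 and encode proteins that bind RNA with a foreign 5′ end and limit its translation. Ifit1 (chromosome 19, 34640871 to 34650009 in GRCm38) had 1.45, 2.48, 6.03 and 7.45 CPM in the SR59230A tumors, against 7.18, 6.54, 1.78 and 7.93 CPM in the vehicle tumors. SR59230A tumors 1 and 2 and vehicle tumor 2 were low and the other 5 tumors were high, so the low tumors came from both groups, and the fold change was -0.43 ± 0.57 (95% interval -1.71 to 0.85). It was -1.09 within tumors 1 and 2 of each group and -0.17 in the other 4. Ifit2, which can promote apoptosis, ranged over 1.39 to 2.63 CPM with SR59230A and 1.84 to 2.72 CPM with vehicle with a fold change of -0.24 ± 0.27. Ifit3 and Ifit3b, the near-identical copies whose printed promoter windows are the same, did not pass the low-count filter, with 2 to 16 and 0 to 7 reads per tumor. As 61.8% of the 31-base words of Ifit3 also occurred in Ifit3b, their reads were added, which gave 9, 16, 7 and 13 reads in the SR59230A tumors, against 8, 15, 8 and 21 in the vehicle tumors. These sums did not separate the groups.

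**Figure D3:**
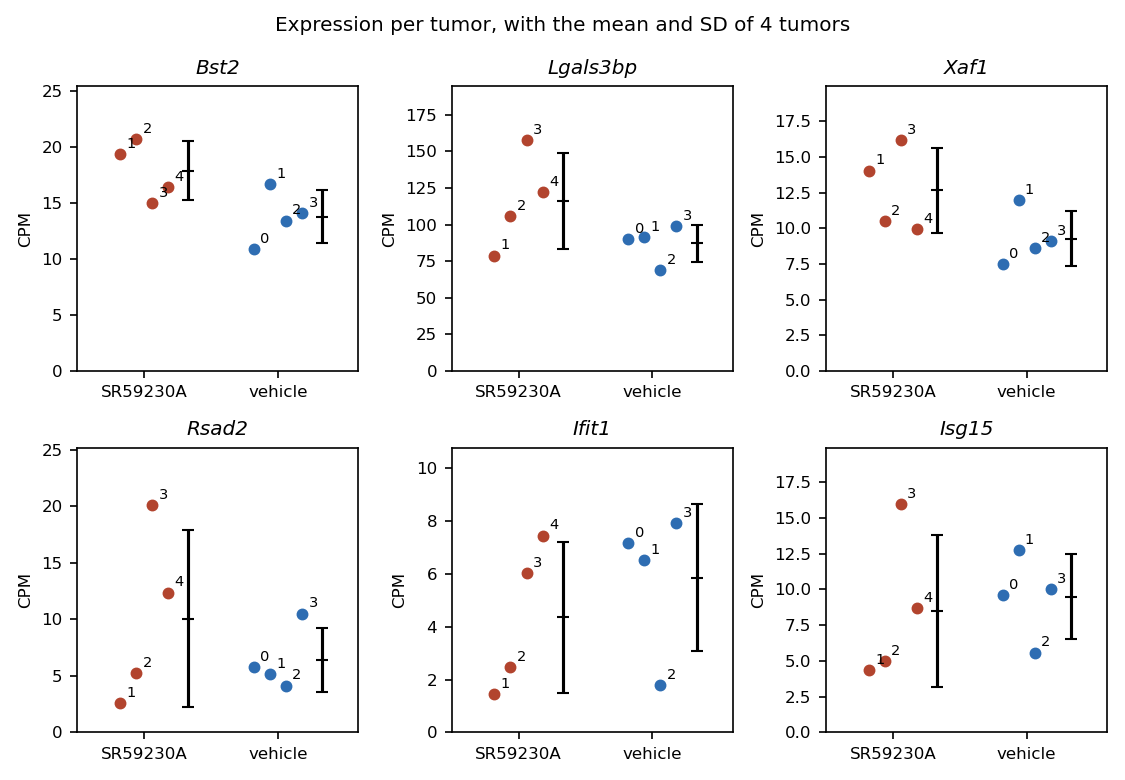
CPM of Bst2, Lgals3bp, Xaf1, Rsad2, Ifit1 and Isg15 in each tumor (points, numbered by tumor), SR59230A left and vehicle right, with the mean and SD of 4 tumors in black. Ifit1 splits each group into low tumors (SR59230A 1 and 2 at 1.45 and 2.48 CPM, vehicle 2 at 1.78 CPM) and high tumors, and the groups overlap in all 6 panels.

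Mx1 and Mx2 encode dynamin-like GTPases that trap viral nucleoproteins, and many inbred mouse strains carry defective copies. Mx2, annotated as a polymorphic pseudogene, had 2.26, 3.33, 8.61 and 5.73 CPM in the SR59230A tumors, against 6.22, 4.10, 3.14 and 8.16 CPM in the vehicle tumors. SR59230A tumor 3 and vehicle tumor 3 were highest, SR59230A tumor 1 was lowest, and the fold change was -0.12 ± 0.44. Mx1 ranged over 2.29 to 6.67 CPM with SR59230A and 2.07 to 4.10 CPM with vehicle with a fold change of 0.34 ± 0.38, which was -0.61 when only transcripts annotated as protein coding were summed, which held 27.3% of its reads. Reads of both genes summed to a log2 ratio of group means of 0.06, which was not tested.

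Rsad2 encodes viperin, which makes a chain-terminating nucleotide, and it lies beside Cmpk2, a mitochondrial nucleotide kinase, on chromosome 12. Rsad2 (chromosome 12, 26442746 to 26456452) had 2.59, 5.22, 20.1 and 12.4 CPM in the SR59230A tumors, against 5.74, 5.19, 4.14 and 10.5 CPM in the vehicle tumors. SR59230A tumor 1 was the lowest of the 8 and SR59230A tumor 3 the highest, and the fold change was 0.65 ± 0.57 (95% interval -0.62 to 1.92). Without SR59230A tumor 3 it was 0.06, within tumors 1 and 2 of each group -0.25 and in the other 4 tumors 0.99. Cmpk2 varied less, with 7.64, 9.66, 10.2 and 7.62 CPM in the SR59230A tumors, against 8.69, 8.89, 7.79 and 6.78 CPM in the vehicle tumors. The vehicle tumor numbered 3 had its lowest value, and the fold change was 0.13 ± 0.17.

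Both genes of double-stranded RNA-binding enzymes had levels within a narrow range in most tumors. Eif2ak2, which encodes the kinase PKR that stops translation by phosphorylating eIF2α, had 44.3, 45.6, 46.7 and 50.2 CPM in the SR59230A tumors, against 45.6, 43.9, 42.8 and 62.6 CPM in the vehicle tumors. Vehicle tumor 3 stood above the other 7, which lay between 42.8 and 50.2 CPM, and the fold change was -0.06 ± 0.13. Adar, whose product edits adenosine to inosine in double-stranded RNA and keeps self RNA from MDA5, had 51.9, 64.8, 62.4 and 53.5 CPM in the SR59230A tumors, against 52.3, 56.3, 57.4 and 52.8 CPM in the vehicle tumors. SR59230A tumors 2 and 3 were highest and SR59230A tumor 1 lowest, and the fold change was 0.09 ± 0.10 (95% interval -0.14 to 0.32).

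Isg15 encodes the ubiquitin-like modifier of the response. Isg15 (chromosome 4, 156199424 to 156200818) had 4.37, 4.97, 15.96 and 8.69 CPM in the SR59230A tumors, against 9.61, 12.8, 5.58 and 10.03 CPM in the vehicle tumors. SR59230A tumors 1 and 2 were lowest and SR59230A tumor 3 highest, with the vehicle values between them, and means were 8.50 ± 5.33 CPM with SR59230A and 9.50 ± 2.96 CPM with vehicle (SD, n = 4 each). Its fold change was -0.17 ± 0.42 over all tumors, -0.98 within tumors 1 and 2 of each group and 0.32 in the other 4, and the difference between these sets was not tested. Of the 31-base words of Isg15 and Herc6, 12.8% and 13.8% also occurred in transcripts of other genes, so some of their reads could be shared. Herc6, the ligase that attaches ISG15 in mice, had 18.3, 16.4, 22.4 and 13.2 CPM in the SR59230A tumors, against 12.96, 16.2, 12.9 and 18.6 CPM in the vehicle tumors. SR59230A tumor 3 was highest and the remaining values of the groups were interleaved, with a fold change of 0.21 ± 0.19, which was 0.07 without SR59230A tumor 3. Trim25, the ubiquitin ligase that activates RIG-I, had 93.7, 98.6, 99.5 and 105 CPM in the SR59230A tumors, against 92.6, 103, 109.7 and 89.04 CPM in the vehicle tumors. These values overlapped fully, and the fold change of 0.01 ± 0.10 had a 95% interval of -0.21 to 0.23.

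Parp9 and Dtx3l encode partners in an ADP-ribosyltransferase and ubiquitin ligase complex, their 5′ ends overlap on opposite strands of chromosome 16, and Parp14 lies nearby. Whether the quantification used strand is not given in the sources used here. All 3 had negative fold changes that did not pass the test (median -0.10), but without SR59230A tumor 4 and vehicle tumors 0 and 3 all 3 were positive, with 0.068 for Parp9, 0.0023 for Dtx3l and 0.25 for Parp14. Parp14 was also at 0.07 and 0.09 with limma on log2(TPM + 1) and log2(TPM + 0.1). Parp9 had 16.1, 19.8, 19.4 and 17.3 CPM in the SR59230A tumors, against 18.2, 19.8, 15.6 and 23.3 CPM in the vehicle tumors. Vehicle tumors held both its highest value, in tumor 3, and its lowest, in tumor 2, and the fold change was -0.08 ± 0.14. Dtx3l had 25.6, 28.6, 32.5 and 29.6 CPM in the SR59230A tumors, against 34.3, 29.6, 28.7 and 38.6 CPM in the vehicle tumors. Vehicle tumors 0 and 3 lay above all SR59230A tumors and vehicle tumors 1 and 2 among them, with a fold change of -0.17 ± 0.13 (95% interval -0.46 to 0.11). Parp14, a mono-ADP-ribosyltransferase, had 14.7, 14.2, 19.3 and 12.6 CPM in the SR59230A tumors, against 13.1, 16.1, 11.1 and 24.9 CPM in the vehicle tumors. The tumors numbered 3 of both groups were highest, and its fold change of -0.10 ± 0.25 was 0.17 without vehicle tumor 3.

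Membrane and secreted proteins included the gene with the smallest p of the set. Bst2 encodes tetherin, which holds budding virions at the cell surface. Bst2 (chromosome 8, 71534255 to 71537456) had 19.4, 20.7, 14.99 and 16.4 CPM in the SR59230A tumors, against 10.9, 16.7, 13.4 and 14.1 CPM in the vehicle tumors. SR59230A tumors 1 and 2 lay above all vehicle tumors, vehicle tumor 1 lay above SR59230A tumors 3 and 4, and vehicle tumor 0 was lowest. Means were 17.9 ± 2.64 CPM with SR59230A and 13.8 ± 2.38 CPM with vehicle (SD, n = 4 each). The edgeR fold change was 0.38 ± 0.16 (unadjusted p = 0.0451, adjusted p = 0.996), and the exact two-sided permutation test over 70 assignments gave p = 0.0857, where the smallest possible is 0.0286. It was 0.41 within tumors 1 and 2 of each group, 0.32 in the other 4 and 0.28 to 0.48 without single tumors.

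Lgals3bp encodes a secreted glycoprotein that binds galectin-3. Lgals3bp (chromosome 11, 118392751 to 118402092) had 78.7, 106, 158 and 122 CPM in the SR59230A tumors, against 89.9, 91.2, 68.97 and 98.7 CPM in the vehicle tumors. SR59230A tumors 2, 3 and 4 lay above all vehicle tumors, SR59230A tumor 1 lay second lowest, and vehicle tumor 2 was lowest. Means were 116 ± 33.04 CPM with SR59230A and 87.2 ± 12.8 CPM with vehicle (SD, n = 4 each), and the fold change was 0.41 ± 0.20 (95% interval -0.04 to 0.87). Without SR59230A tumor 3 it was 0.22 and without SR59230A tumor 1 it was 0.56. Rtp4, a chaperone that brings receptors to the cell surface, had 30 to 83 reads per tumor and a fold change of 0.10 ± 0.34.

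The other 5 genes all had positive fold changes that did not pass the test (median 0.33), but the sign turned for Ifi27, at -0.13 within tumors 1 and 2 of each group, for Samd9l, at -0.22 in the other 4 tumors, and for Ifi44, at -0.03 without SR59230A tumor 3. Ifi35, a partner of NMI in a complex formed after interferon exposure, had 26.6, 31.3, 41.8 and 25.2 CPM in the SR59230A tumors, against 23.2, 30.3, 25.99 and 25.4 CPM in the vehicle tumors. SR59230A tumor 3 was highest and vehicle tumor 0 lowest, with a fold change of 0.25 ± 0.17, which was 0.08 without SR59230A tumor 3. Ifi27, a small hydrophobic membrane protein, had 35.6, 43.4, 50.9 and 32.2 CPM in the SR59230A tumors, against 30.2, 47.1, 39.4 and 32.1 CPM in the vehicle tumors. Transcripts with a retained intron held 24.7% of its reads, the groups overlapped and the fold change was 0.12 ± 0.18.

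Xaf1 encodes a protein that opposes the apoptosis inhibitor XIAP. Xaf1 (chromosome 11, 72301629 to 72313733) had 14.1, 10.5, 16.2 and 9.92 CPM in the SR59230A tumors, against 7.48, 11.97, 8.60 and 9.08 CPM in the vehicle tumors. SR59230A tumors 1 and 3 were highest, the other 2 SR59230A tumors lay among the vehicle tumors, and means were 12.7 ± 2.98 CPM with SR59230A and 9.28 ± 1.91 CPM with vehicle (SD, n = 4 each). The fold change was 0.44 ± 0.21 (95% interval -0.03 to 0.92). Samd9l, which restrains translation and cell growth, had 13.2, 9.28, 12.6 and 8.24 CPM in the SR59230A tumors, against 6.04, 5.84, 4.56 and 18.2 CPM in the vehicle tumors. Vehicle tumor 3 was the highest of the 8 tumors and the other 3 vehicle tumors were the lowest. Its fold change was 0.33 ± 0.42 over all tumors, 0.98 without vehicle tumor 3 and -0.22 without tumors 1 and 2 of each group. Ifi44 had 10 to 38 reads per tumor and a fold change of 0.69 ± 0.58, which was -0.03 without SR59230A tumor 3.

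Levels of the 35 genes differed between tumors within both groups. Their mean log2 CPM was 2.76, 2.98, 3.60 and 2.91 in SR59230A tumors 1 to 4, against 2.82, 2.93, 2.56 and 3.36 in vehicle tumors 0 to 3. SR59230A tumor 3 was highest and vehicle tumor 3 next, and vehicle tumor 2 was lowest. SR59230A tumor 3 had the highest value of the 8 tumors for 19 genes and vehicle tumor 3 for 11, which leaves 5 of 35 for the other 6 tumors. The lowest value fell in SR59230A tumor 1 for 10 genes and in vehicle tumor 2 for 13. The same counts were not made over all genes tested, so they cannot be read as particular to this set. By role, the mean deviation from the average tumor in SR59230A tumor 3 and vehicle tumor 3 was 0.82 and 0.83 for the nucleic acid sensors, 0.66 and 0.48 for the 2-5A synthetases and 0.96 and 0.38 for the GTPases and nucleotide enzymes, all as log2 CPM. For the double-stranded RNA-binding enzymes it was 0.06 and 0.16.

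**Figure D4:**
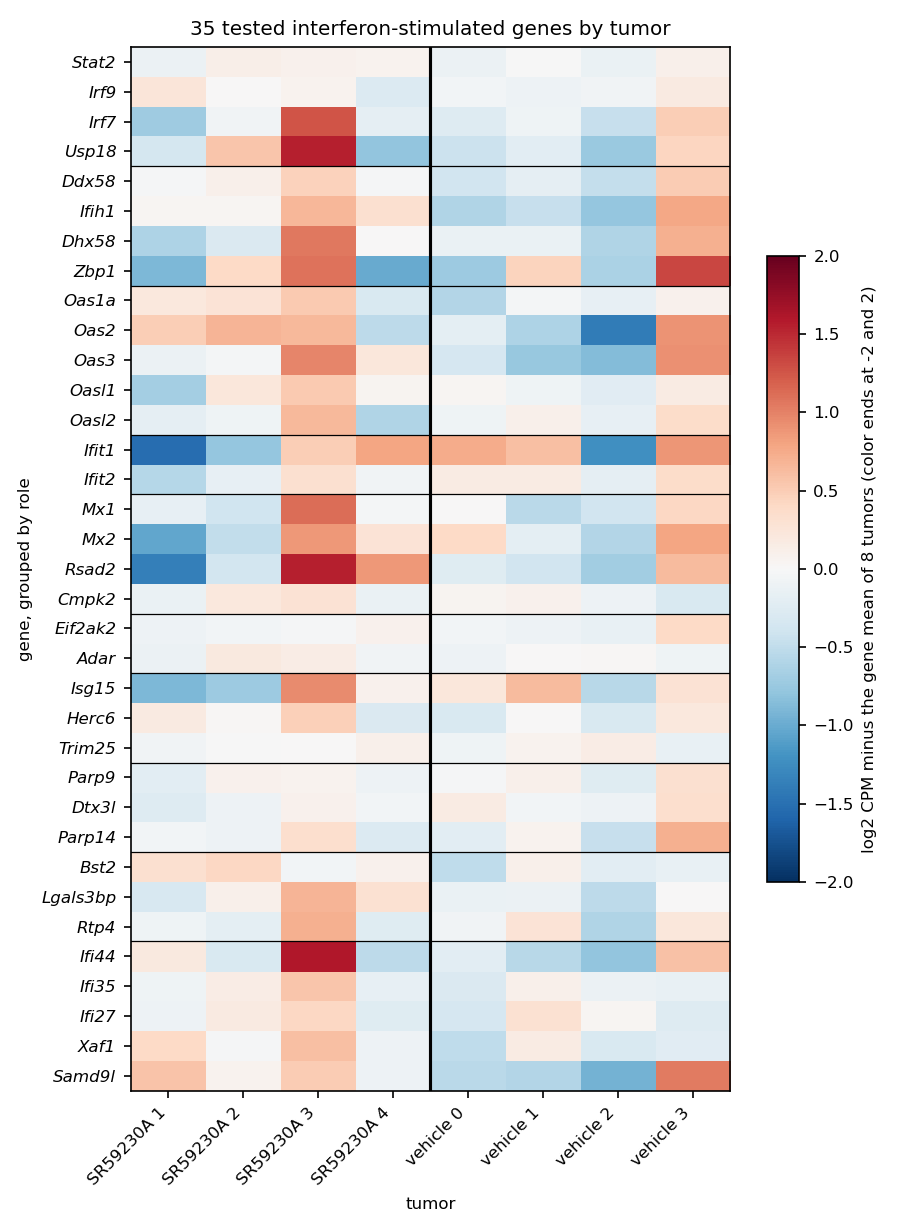
Log2 CPM of each of the 35 tested genes (rows, grouped by role) in each tumor (columns, SR59230A 1 to 4 left of the line and vehicle 0 to 3 right of it), after subtraction of the gene's mean over 8 tumors. Red is above and blue below the mean, and the red columns are SR59230A tumor 3 (highest for 19 genes) and vehicle tumor 3 (highest for 11).

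SR59230A tumor 1 did not move as one across the set. It was low for Rsad2 (2.59 CPM), Ifit1 (1.45 CPM), Isg15 (4.37 CPM) and Mx2 (2.26 CPM), the lowest of the 8 tumors for each. In the same tumor Samd9l (13.2 CPM), Bst2 (19.4 CPM) and Xaf1 (14.1 CPM) were the second highest of the 8. This was the tumor with the most reads of skeletal muscle markers. Whether those reads bear on this pattern was not tested.

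Some library measures were highest in the same tumors. The summed level of 10 macrophage markers, all of them detected, was 769 CPM in SR59230A tumor 3 and 759 CPM in vehicle tumor 3, against 335 to 602 CPM in the other 6, and spanned 451 to 769 CPM with SR59230A and 335 to 759 CPM with vehicle. Mrc1 and Cd163 held 56.5% to 83.3% of this sum. The other 8 markers summed to 229, 187, 153 and 100.3 CPM in SR59230A tumors 1 to 4, against 113, 165, 147 and 153 CPM in vehicle tumors 0 to 3, a split chosen after the values were seen. Of the 10 markers, 5 were highest in SR59230A tumor 1, 1 in SR59230A tumor 2, 2 in SR59230A tumor 3 and 2 in vehicle tumor 3, so most of the list was not highest in the tumors numbered 3. These tumors, numbered 3, had the highest mitochondrial shares given above and the highest shares of reads in transcripts with a retained intron, 4.20% and 3.76%, although SR59230A tumor 1 was close with 3.71%. Markers of plasmacytoid dendritic cells, the main producers of interferon alpha, summed to 16.02 to 24.6 CPM with SR59230A and 22.04 to 31.5 CPM with vehicle (5 of 6 tested, none at 0 in all tumors). Pacsin1 alone held 70.5% to 92.3% of this sum, and the other 5 markers summed to 2.12 to 4.72 CPM with SR59230A and 1.69 to 7.70 CPM with vehicle. The value of 4.72 CPM was in SR59230A tumor 1, the tumor with the most muscle reads, where Cox6a2 alone had 2.40 CPM. The value of 7.70 CPM was in vehicle tumor 3, where Siglech alone had 3.52 CPM. Whether these sums follow the number of such cells was not tested. Markers of T and NK cells summed to 1.36 to 1.44 CPM with SR59230A and 1.45 to 4.21 CPM with vehicle (3 of 8 tested, none at 0 in all tumors). Of these 8, 5 were highest in vehicle tumor 3, 2 in vehicle tumor 1 and 1 in SR59230A tumor 2. All 6 neutrophil markers (4 tested) were highest in SR59230A tumor 3. Cxcr2 held 77.4% to 96.25% of the neutrophil sum. The other 5 summed to 3.36, 4.31, 25.2 and 5.12 CPM in SR59230A tumors 1 to 4, against 3.39, 2.79, 2.75 and 5.59 CPM in vehicle tumors 0 to 3. The part of these measures in the levels of the interferon-stimulated genes was not tested.

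**Figure D5:**
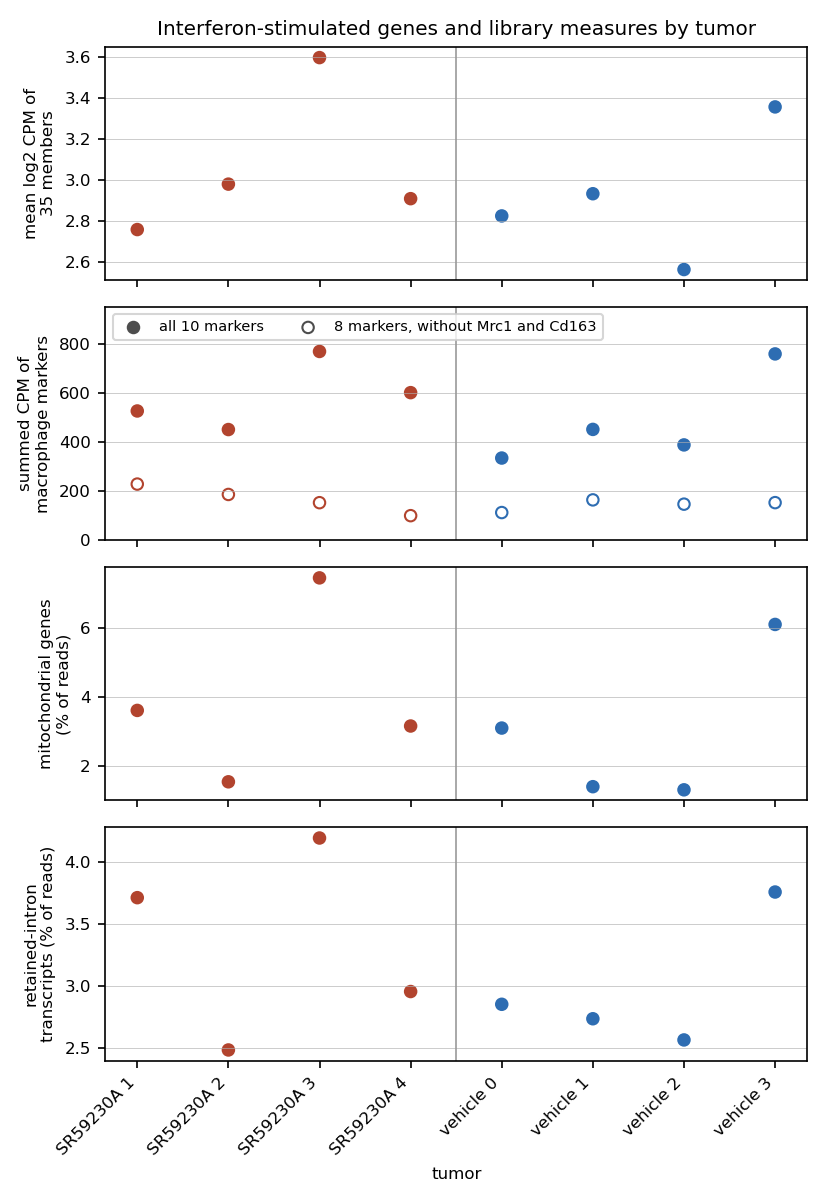
Mean log2 CPM of the 35 tested genes, summed CPM of macrophage markers (filled, all 10; open, the 8 other than Mrc1 and Cd163), mitochondrial share of reads and share of reads in transcripts with a retained intron (panels from top to bottom) for each tumor, SR59230A in red on the left and vehicle in blue on the right. SR59230A tumor 3 and vehicle tumor 3 hold the highest filled points in all 4 panels (3.60 and 3.36 in the top one), while among the open points SR59230A tumor 1 is highest, at 229 CPM against 153 CPM in both tumors numbered 3.

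The rest of the interferon pathway was read from 5 lists. Interferons themselves were hardly detected: reads of 20 ligand genes summed to 0, 0, 0 and 3 in SR59230A tumors 1 to 4, against 1, 0, 1 and 7 in vehicle tumors 0 to 3. Ifnb1 had 0 reads in all 8 tumors and Ifng, the type II interferon, 0 to 2. None of the 20 could be tested at this depth.

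Of 9 genes for interferon receptors and their kinases, 8 were tested and none passed in either direction (median log2 fold change -0.01). Ifnar1 had a fold change of -0.05 ± 0.11, Ifnar2 of 0.16 ± 0.11 and Jak1 of -0.10 ± 0.13. Of 11 genes that restrain the pathway, all were tested and none passed (median 0.06). Samhd1, which hydrolyses deoxynucleotides, had 0.18 ± 0.13, and Rnaseh2c, a subunit of the RNase that removes RNA from DNA, had 0.59 ± 0.31 on 12 to 57 reads per tumor.

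Of 13 genes for nucleic acid sensing and interferon induction, 12 were tested and none passed (median -0.04). Irf3, the factor that first switches on Ifnb1, had a fold change of -0.15 ± 0.17, and Cgas, the sensor of cytosolic DNA, 0.48 ± 0.26. Tlr7, the endosomal receptor for single-stranded RNA, had 2.43, 3.18, 4.48 and 4.53 CPM in the SR59230A tumors, against 1.47, 2.07, 1.84 and 2.03 CPM in the vehicle tumors. All 4 SR59230A tumors lay above all 4 vehicle tumors, as they did for 201 of the 15207 genes tested (1.32%). Its fold change was 0.97 ± 0.27 (edgeR unadjusted p = 0.00525, adjusted p = 0.996, DESeq2 adjusted p = 0.198), so it did not pass over all genes tested. The exact two-sided permutation p was 0.0286, the smallest that 4 against 4 tumors allow, and the gene is named because its p was the smallest of its list. The fold change was 0.52 within tumors 1 and 2 of each group, 1.35 in the other 4 and 0.85 to 1.13 without single tumors.

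Of 41 other interferon-stimulated genes, 39 were tested (median log2 fold change 0.06). Of these 39, 25 were positive and 14 negative, where 7546 of all 15207 genes tested were positive. None passed, and none reached an unadjusted edgeR p under 0.05. The smallest p values belonged to Slfn5, a nuclear protein of the Schlafen family, and Ifi211, a member of the family of DNA-binding HIN proteins. Slfn5 had 74.6, 47.02, 79.6 and 55.1 CPM in the SR59230A tumors, against 38.4, 60.2, 42.05 and 47.7 CPM in the vehicle tumors, with a fold change of 0.44 ± 0.20. Ifi211 had 1.66, 1.59, 2.58 and 1.10 CPM in the SR59230A tumors, against 0.589, 1.15, 0.936 and 1.30 CPM in the vehicle tumors, with a fold change of 0.79 ± 0.36. Values of both genes overlapped between the groups.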

How the data were processed

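The authors quantified paired reads of stranded total RNA libraries with Salmon against a GRCm38 transcriptome (the submitters' notes name GRCm39). The deposited files hold estimated counts, TPM and transcript lengths for each transcript of each tumor, and the authors' table of scaled counts per symbol was not used because it lists few of the genes described here. For each gene, the estimated counts of its transcripts were added. GENCODE annotation of GRCm38 held 115685 of the 116747 transcripts (99.09%), which left 0.353% to 0.455% of reads unmatched, and sums were rounded to whole numbers. All 8 tumors entered one edgeR 4.0.16 fit (R 4.3.3) with TMM scaling, its default low-count filter, quasi-likelihood tests and p-values adjusted over all 15207 genes by Benjamini-Hochberg. A call needed an adjusted p under 0.05 and a log2 fold change beyond 0.5 in either direction. CPM are scaled by the same factors. Log2 CPM used a prior count of 2. Samples were grouped by their labels.

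The 37 genes came from the given list, which used no measured value. The pathway lists, markers and left-out tumors were chosen with earlier results of these data known. Per-tumor values are given for genes with at least 100 reads in the mean tumor or an unadjusted p under 0.05, and of each pathway list for the genes with the smallest p beside a few fixed ones. One gene of the pathway lists is not reported here. No pair of libraries within a group differed by sampling noise alone, as chi-square per degree of freedom was at least 44.6. It was 44.6 for vehicle tumors 1 and 2, 99.5 for vehicle tumors 0 and 3 and 103.5 for SR59230A tumors 1 and 2. The remaining vehicle pairs had 369 to 489 and the remaining SR59230A pairs 219 to 438. The labels do not say why these pairs were closer. Alternatives used DESeq2 1.42.0, its size factors, no filter, length offsets, limma 3.58.1 on log2(TPM + 1) and log2(TPM + 0.1), protein coding transcripts, a replicate block and left-out tumors. The fits were also run on simulated counts with known changes. There every gene had the same spread and no tumor stood apart, so that run does not measure power in these tumors.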

Additional observations from a re-analysis of the deposited data

Results flagged for a closer look

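In groups of 4 tumors, a value far from the other 3 (Dixon's criterion) was found 7 times among 92 groups of values examined, where chance gives about 1 in 20. In SR59230A tumor 3, Mx1 had 6.67 CPM against 2.29 to 2.95 CPM in the other SR59230A tumors, and Rtp4 had 2.34 CPM against 1.17 to 1.31 CPM. In SR59230A tumor 1, Samhd1 had 83.4 CPM against 59.7 to 61.7 CPM. In vehicle tumor 3, Irf9 had 9.96 CPM against 8.18 to 8.47 CPM in the other vehicle tumors, Ifih1 had 4.90 CPM against 1.63 to 2.05 CPM, Eif2ak2 had 62.6 CPM against 42.8 to 45.6 CPM, and Samd9l had 18.2 CPM against 4.56 to 6.04 CPM. SR59230A tumor 3 and vehicle tumor 3, which hold 6 of these 7 values, were also the tumors with the highest mitochondrial shares and the highest levels of the macrophage markers Mrc1 and Cd163, but not of the other 8 macrophage markers, which summed to 153 CPM in both and to 229 CPM in SR59230A tumor 1. The part of these measures in the values was not tested.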

How the results depend on the processing

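No gene of the set passed the threshold under any alternative, and the smallest adjusted p of a member over the alternatives was 0.49, without vehicle tumor 3. Over all genes edgeR called 0 with all 8 tumors, DESeq2 37, the replicate block 2 and its 6 tumors without the block 1, the tumors other than 1 and 2 of each group 5, and fits without single tumors 0 to 1. Samples with the same number deviated together in tumors 2 and 3 (r = 0.626 and 0.534 across genes) but not in tumor 1 (0.0104). The labels do not say whether the numbers mark pairs, and the main fit did not use them. In tumors 1 to 3 of each group, 863 of 15321 genes had an unadjusted edgeR p under 0.05 with the replicate block and 405 without it. With a term for tumors 1 and 2 of each group, the median of the 35 genes was 0.13 and no sign turned. The fold changes of 13 genes kept their sign under all alternatives: Adar, Bst2, Ddx58, Herc6, Ifi35, Ifih1, Ifit2, Lgals3bp, Oas1a, Oas3, Stat2, Usp18 and Xaf1. Signs that turned are given next as log2 fold changes, and the cause was not tested. Length offsets gave Irf9 -0.0010, Oasl2 0.21 and Trim25 -0.022. Limma on log2(TPM + 1) gave Oasl2 0.16, Mx2 0.015, Eif2ak2 0.047 and Parp14 0.066, and with 0.1 in place of 1 it gave 0.18, 0.0059, 0.049 and 0.086. Protein coding transcripts alone gave Mx1 -0.61. The replicate block gave Oasl2 0.027, Trim25 -0.041 and Ifnar1 0.036, and the same tumors without the block 0.060, -0.044 and 0.043. Without SR59230A tumor 4 and vehicle tumors 0 and 3, values were Zbp1 0.40, Oasl2 0.21, Mx2 0.39, Eif2ak2 0.084, Trim25 -0.12, Parp9 0.068, Dtx3l 0.0023, Parp14 0.25 and Ifnar1 0.076. Without SR59230A tumors 1 and 2 they were Irf9 -0.092, Zbp1 0.0017, Oasl2 0.078, Ifit1 0.21, Mx2 0.41 and Isg15 0.37. Without tumor 3 of both groups, chosen after the values were seen, they were Irf7 -0.031, Dhx58 -0.00090, Cmpk2 -0.023, Eif2ak2 0.084, Trim25 -0.035, Parp14 0.041, Rtp4 -0.097 and Ifi27 -0.066. Within tumors 1 and 2 of each group they were Irf7 -0.093, Dhx58 -0.092, Oasl1 -0.0018, Rsad2 -0.25, Eif2ak2 0.055, Trim25 -0.14, Parp9 0.018, Parp14 0.084, Rtp4 -0.060 and Ifi27 -0.13. In the other 4 tumors they were Irf9 -0.17, Oas2 -0.31, Isg15 0.32 and Samd9l -0.22. Without single tumors, values ran from -0.33 to 0.46 for Dhx58, -0.12 to 0.081 for Eif2ak2, -0.0077 to 0.26 for Ifi27, -0.030 to 1.08 for Ifi44, -0.27 to 0.54 for Irf7, -0.052 to 0.12 for Irf9, -0.67 to 0.048 for Isg15, -0.12 to 0.55 for Mx1, -0.53 to 0.14 for Mx2, -0.069 to 0.30 for Oasl1, -0.35 to 0.10 for Oasl2, -0.25 to 0.17 for Parp14, -0.17 to 0.021 for Parp9, -0.19 to 0.21 for Rtp4, -0.037 to 0.066 for Trim25 and -0.78 to 0.33 for Zbp1. For the other 19 genes they ran from 0.031 to 0.14 for Adar, 0.28 to 0.48 for Bst2, 0.044 to 0.19 for Cmpk2, 0.095 to 0.49 for Ddx58, -0.24 to -0.087 for Dtx3l, 0.067 to 0.33 for Herc6, 0.077 to 0.34 for Ifi35, 0.25 to 0.91 for Ifih1, -0.83 to -0.14 for Ifit1, -0.41 to -0.10 for Ifit2, 0.22 to 0.56 for Lgals3bp, 0.24 to 0.50 for Oas1a, 0.26 to 1.15 for Oas2, 0.10 to 0.99 for Oas3, 0.062 to 0.99 for Rsad2, 0.12 to 0.98 for Samd9l, 0.048 to 0.13 for Stat2, 0.091 to 0.98 for Usp18 and 0.30 to 0.59 for Xaf1.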
